A study of Homo sapiens with 6 samples.

Results

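Osteoblasts, the cells that build bone, are recognised by a small set of transcription factors and by the matrix and mineral genes they express. Here 10 such genes were followed in U2OS, a human osteosarcoma cell line: the transcription factor genes RUNX2, SP7, MSX2 and DLX5, the matrix and mineral genes ALPL, SPP1, BGLAP and IBSP, and BMP4 and TNFRSF11B, which encode secreted signals. They were chosen by symbol, and all 10 were among the 19977 symbols of the table. RNA was taken 48 hours after transfection with an siRNA against NUDT5 (siNUDT5, 3 libraries) or with a non-targeting control siRNA (siCtrl, 3 libraries), in cells labelled as otherwise untreated in both groups. NUDT5 is a hydrolase that acts on ADP-ribose, and the comparison asks what changes in expression when it is depleted. Values are TPM, in which each transcript's abundance is corrected for its length and for the total of its library. The labels do not say whether a single siRNA or a pool was used, or whether each library had a culture of its own. The p-values therefore rest on the spread among these 6 libraries, and that spread may be purely technical.

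In the osteoblast lineage RUNX2 acts with its partner protein CBFB as the master regulator that commits mesenchymal cells to bone, and SP7 (osterix) acts downstream of it. The homeodomain proteins MSX2 and DLX5 respond to bone morphogenetic proteins such as BMP4. Tissue-nonspecific alkaline phosphatase (ALPL) is an early marker that frees phosphate for mineral. Osteopontin (SPP1), bone sialoprotein (IBSP) and osteocalcin (BGLAP) are matrix proteins, of which IBSP and BGLAP mark mature, mineralising osteoblasts. TNFRSF11B encodes osteoprotegerin, a decoy receptor that binds the osteoclast-inducing ligand RANKL.

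Promoter sequences show which of these genes carry the letters that RUNX proteins or homeodomain proteins are known to prefer. RefSeq's table, on build GRCh38.p14, held 12 promoters of 300 bases for 7 of the 10 genes, each from 250 bases before to 50 after an annotated start. SP7, DLX5 and TNFRSF11B had no entry. The RUNX core TGTGGT, searched on both strands and so also as ACCACA, was in 4 of the 12 promoters, where 13.1% of all 35116 promoters of the table held it. The homeodomain core TAATTA, which is its own reverse complement, was in 1 of the 12, that of MSX2, and in 4.84% of all promoters. The motifs did not overlap each other in these promoters. The sequences given are the distal promoter of RUNX2, the regulator itself, then those of SPP1 and BGLAP, a matrix gene that was on and one that was not, and that of MSX2. Each is on the plus strand, with the motif in capitals.
RUNX2, chr6:45328080-45328379: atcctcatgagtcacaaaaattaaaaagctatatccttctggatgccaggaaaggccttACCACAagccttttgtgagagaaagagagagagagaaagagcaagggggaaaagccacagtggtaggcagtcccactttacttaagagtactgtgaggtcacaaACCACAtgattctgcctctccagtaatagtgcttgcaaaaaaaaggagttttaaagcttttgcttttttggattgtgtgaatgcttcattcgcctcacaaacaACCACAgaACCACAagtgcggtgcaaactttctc
SPP1, chr4:87975464-87975763: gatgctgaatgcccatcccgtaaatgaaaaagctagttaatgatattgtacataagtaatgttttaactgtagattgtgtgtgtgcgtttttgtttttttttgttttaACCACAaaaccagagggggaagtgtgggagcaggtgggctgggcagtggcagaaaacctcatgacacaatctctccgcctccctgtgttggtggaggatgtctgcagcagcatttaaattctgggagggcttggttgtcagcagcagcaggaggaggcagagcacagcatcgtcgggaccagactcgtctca
BGLAP, chr1:156241934-156242233: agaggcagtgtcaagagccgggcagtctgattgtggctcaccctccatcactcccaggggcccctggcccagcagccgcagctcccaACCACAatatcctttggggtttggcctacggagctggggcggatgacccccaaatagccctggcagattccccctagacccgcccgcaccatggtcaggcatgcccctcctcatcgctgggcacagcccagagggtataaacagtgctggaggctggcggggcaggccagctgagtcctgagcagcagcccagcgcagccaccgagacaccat
MSX2, chr5:174724332-174724631: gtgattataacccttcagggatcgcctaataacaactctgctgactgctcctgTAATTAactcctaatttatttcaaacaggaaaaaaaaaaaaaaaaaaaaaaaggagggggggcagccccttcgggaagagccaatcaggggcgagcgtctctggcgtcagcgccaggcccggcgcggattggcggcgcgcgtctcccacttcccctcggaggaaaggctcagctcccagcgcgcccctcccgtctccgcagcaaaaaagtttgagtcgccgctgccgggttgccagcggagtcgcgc
The distal RUNX2 promoter held the core 4 times, beginning 191 and 87 bases before the start and 16 and 24 bases after it. SPP1 held it 142 bases and BGLAP 163 bases before the start, and the motif of MSX2 began 197 bases before its start. The other promoter with the RUNX core was 1 of 3 listed for BMP4. These matches describe letters only, and binding was not measured.

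Of the 10 genes, 6 were on in both groups, taking on to mean a mean of at least 1 TPM in the group with a value above 0 in each of its libraries. They were RUNX2, MSX2, ALPL, SPP1, BMP4 and TNFRSF11B, and the lowest value of any of them in any library was 5.83 TPM, so none was near the limit. The other 4, SP7, DLX5, IBSP and BGLAP, were at or near 0. SP7 was listed at 0 in every library, and DLX5, IBSP and BGLAP were each above 0 in at most 2 of 6. BMP4 stood above 90.9% of the 19977 symbols in its mean over the 6 libraries, TNFRSF11B above 72.1%, SPP1 above 62.8%, RUNX2 above 58.0%, ALPL above 55.2% and MSX2 above 55.0%. Of these symbols 3074 were at 0 throughout. Among the 12236 genes that averaged at least 1 TPM, BMP4 stood above 85.2% and TNFRSF11B above 54.4%, while SPP1 (39.2%), RUNX2 (31.4%), ALPL (26.8%) and MSX2 (26.5%) lay below the middle.

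**Figure D1:**
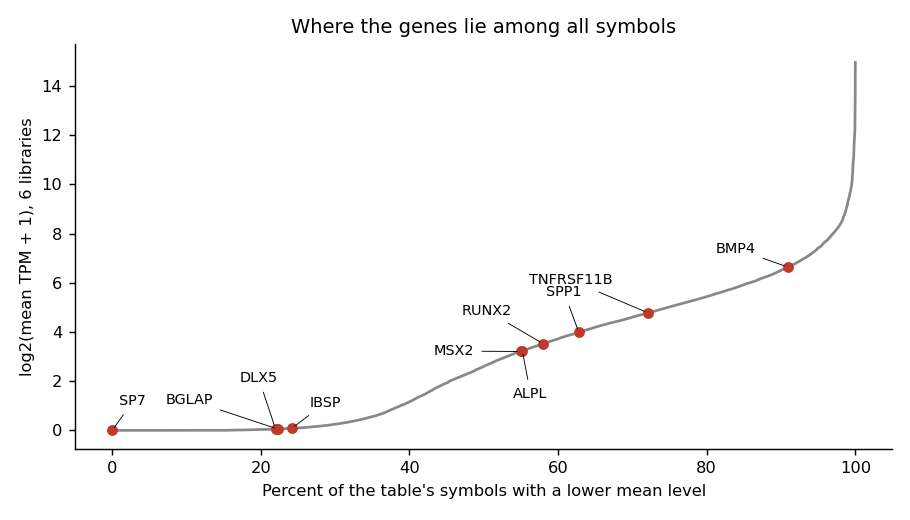
Mean level of each symbol over the 6 libraries as log2(mean TPM + 1) on the vertical axis against the percentage of the table's 19977 symbols with a lower mean on the horizontal axis (grey line), with the 10 osteoblast lineage genes as red points. The 6 genes that were on lie between 55.0% and 90.9% of the symbols, and SP7, DLX5, BGLAP and IBSP lie on the flat part near 0.

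In cells given the NUDT5 siRNA, BMP4, MSX2, TNFRSF11B and ALPL rose in siNUDT5 and SPP1 fell, all at an adjusted p under 0.05 in limma's two-sided test of log2(TPM + 1), with Benjamini-Hochberg adjustment over 12236 genes, and RUNX2 did not pass. That is 4 of 6 tested members higher and 1 lower, where 10.9% of all tested genes were higher and 5.20% lower. The members had been chosen with earlier results of these libraries known. The number that rose was 2, BMP4 and MSX2, without siCtrl 3 or any 1 siNUDT5 library and without a filter on low values, and 5 without siCtrl 2. The 3 values of siNUDT5 and of siCtrl did not overlap in any of the 6, with 5 higher and 1 lower, where the groups were apart in 37.3% of all tested genes, 24.3% wholly higher and 12.9% wholly lower. Their median log2 change was 0.55, against 0.05 over all tested genes. NUDT5 mRNA itself stood at 2.82 ± 0.198 TPM in siNUDT5 and 49.1 ± 2.90 TPM in siCtrl (SD, n = 3 each).

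**Figure D2:**
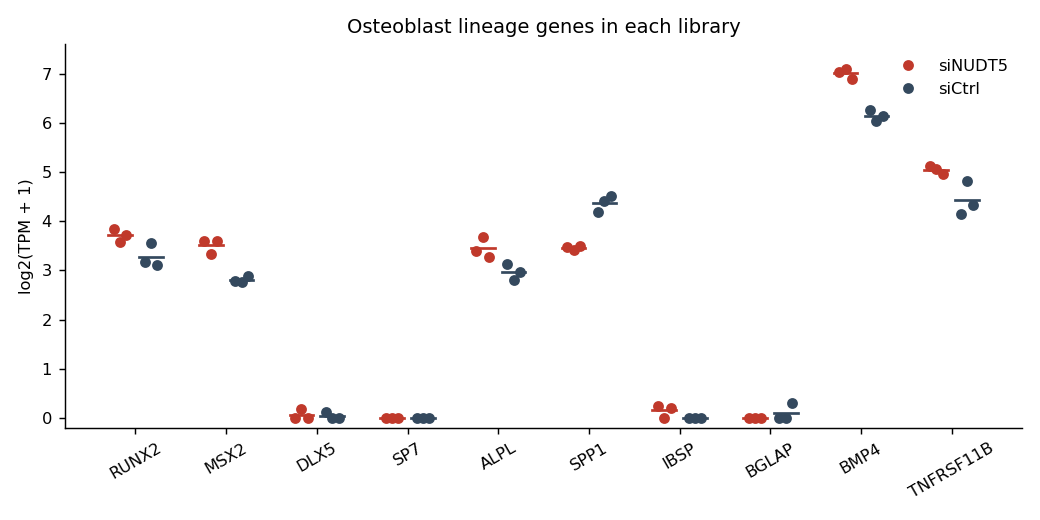
Level of each osteoblast lineage gene as log2(TPM + 1) in the 3 siNUDT5 libraries (red) and the 3 siCtrl libraries (dark blue), with a bar at each group's mean. BMP4, MSX2, ALPL, TNFRSF11B and RUNX2 lie higher in all siNUDT5 libraries, SPP1 lies lower, and the 4 other genes lie at or near 0.

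The libraries differed in depth and in likeness, which bears on RUNX2 and TNFRSF11B below. Low TPM values move in steps of whole reads, which gave relative depths of 89.4%, 118% and 105% for siNUDT5 1 to 3 and 64.1% and 112% for siCtrl 2 and 3, with siCtrl 1 taken as 100%. The total number of reads is not known from TPM. siCtrl 2, the shallowest library, also stood apart in expression: its median absolute difference from the other siCtrl libraries was 0.296 and 0.227 on the log2(TPM + 1) scale, while the other 4 pairs within a group differed by 0.0967 to 0.134. Over all tested genes 1334 were higher and 636 lower, and median-ratio scaling of the libraries gave 1040 higher and 895 lower. None of the 6 members changed direction under either scaling tried.

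Among the transcription factors, RUNX2 was higher in every siNUDT5 library but did not pass the test. Its level was 13.4, 10.99 and 12.2 TPM in siNUDT5 1 to 3, against 8.04, 10.8 and 7.58 TPM in siCtrl 1 to 3. The lowest siNUDT5 value and the highest siCtrl value, that of siCtrl 2, lay side by side. The means were 12.2 ± 1.215 TPM in siNUDT5 and 8.82 ± 1.76 TPM in siCtrl (SD, n = 3 each), and the log2 change was 0.44 (standard error 0.144, 95% interval 0.11 to 0.76, adjusted p = 0.0752). Without siCtrl 2 the change was 0.58 with adjusted p = 0.00156, and over the 14 alternatives the adjusted p ranged from 0.00156 to 0.242, with RUNX2 past the threshold in that 1 only. RUNX2 has more than a single promoter, and these values do not tell its isoforms apart. SUPT3H, which overlaps RUNX2 in the genome, averaged 0.101 TPM in siNUDT5 and 0.134 TPM in siCtrl.

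MSX2, a homeodomain factor of craniofacial and limb bone, rose. Its level was 11.2, 9.09 and 11.1 TPM in siNUDT5 1 to 3, against 5.84, 5.83 and 6.43 TPM in siCtrl 1 to 3. Every siNUDT5 library was well above every siCtrl library, and the siCtrl values lay close together. The mean was 1.73 times as high in siNUDT5, and the log2 change was 0.70 (standard error 0.114, 95% interval 0.44 to 0.96, adjusted p = 0.00587). MSX2 passed in all 14 alternatives, with adjusted p between 0.000843 and 0.0403.

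SP7 and DLX5 gave no measurable signal to compare. SP7 was listed at 0 in all 6 libraries. DLX5 stood at 0.141 TPM in siNUDT5 2 and 0.0829 TPM in siCtrl 1 and was listed at 0 in the other 4 libraries. After division by each library's step these 2 DLX5 values stood in the ratio of 2 reads to 1, the smallest whole numbers that give it. DLX6, its neighbour in the genome, was above 0 in 1 library, siNUDT5 1, and was listed at 0 in the others.

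Of the matrix and mineral genes, ALPL rose and SPP1 fell. ALPL stood at 9.51, 11.8 and 8.68 TPM in siNUDT5 1 to 3, against 7.70, 6.01 and 6.79 TPM in siCtrl 1 to 3. The groups did not overlap, and siNUDT5 2 was the highest library. The means were 10.003 ± 1.63 TPM in siNUDT5 and 6.83 ± 0.846 TPM in siCtrl (SD, n = 3 each), and the log2 change was 0.49 (standard error 0.138, 95% interval 0.17 to 0.80, adjusted p = 0.0472). This call lay at the edge of the threshold: ALPL passed in 6 of 14 alternatives, with adjusted p from 0.0281 to 0.176, and was lost with median-ratio scaling (0.0732) and without siCtrl 3 or any 1 siNUDT5 library (0.0781 to 0.176). The placental phosphatase gene ALPP, which encodes a related enzyme, had a log2 change of -0.33 with adjusted p = 0.191.

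SPP1 was the member that fell, and its siNUDT5 values were the most alike of any member that was on. Its level was 10.1, 9.73 and 10.3 TPM in siNUDT5 1 to 3, against 17.1, 20.3 and 22.0 TPM in siCtrl 1 to 3. No siCtrl library came near the siNUDT5 range. The means were 10.04 ± 0.2998 TPM in siNUDT5 and 19.8 ± 2.48 TPM in siCtrl (SD, n = 3 each), so that the siNUDT5 mean was 0.508 of the siCtrl mean. The log2 change was -0.90 (standard error 0.112, 95% interval -1.16 to -0.65, adjusted p = 0.00208), and SPP1 passed in all 14 alternatives with adjusted p of at most 0.0192.

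The late markers IBSP and BGLAP were barely detected. IBSP, which lies near SPP1 in a cluster of bone and tooth matrix genes, stood at 0.188 TPM in siNUDT5 1 and 0.160 TPM in siNUDT5 3 and was listed at 0 in siNUDT5 2 and in all siCtrl libraries. After division by each library's step the 2 values stood in the ratio of 1 read to 1, the smallest whole numbers that give it. BGLAP was listed at 0 in all siNUDT5 libraries and stood at 0.235 TPM in siCtrl 3, with 0 in the other siCtrl libraries. A few reads cannot separate the groups for these genes, and no fold is given. BGLAP overlaps read-through transcripts of PMF1, whose own mRNA averaged 19.1 ± 3.17 TPM in siNUDT5 and 16.7 ± 3.43 TPM in siCtrl (SD, n = 3 each, adjusted p = 0.490), while the fused gene PMF1-BGLAP was listed at 0 in all 6 libraries. The sources used here do not say how the authors assigned reads that such genes share.

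The secreted signals both rose, and BMP4 was the most abundant member. Its level was 129, 135 and 118 TPM in siNUDT5 1 to 3, against 75.9, 64.8 and 68.9 TPM in siCtrl 1 to 3. The lowest siNUDT5 library was far above the highest siCtrl library. The mean was 1.82 times as high in siNUDT5, at 127 ± 8.63 TPM against 69.9 ± 5.62 TPM in siCtrl (SD, n = 3 each), and the log2 change was 0.86 (standard error 0.0926, 95% interval 0.65 to 1.07, adjusted p = 0.00125). BMP4 passed in all 14 alternatives, with adjusted p of at most 0.0114.

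TNFRSF11B stood at 33.6, 32.2 and 29.997 TPM in siNUDT5 1 to 3, against 16.6, 27.2 and 19.1 TPM in siCtrl 1 to 3. The siNUDT5 libraries were alike, and siCtrl 2 stood above the other siCtrl libraries, nearest to siNUDT5. The means were 31.9 ± 1.82 TPM in siNUDT5 and 20.96 ± 5.56 TPM in siCtrl (SD, n = 3 each), and the log2 change was 0.61 (standard error 0.165, 95% interval 0.24 to 0.99, adjusted p = 0.0387). It passed in 7 of 14 alternatives. Without siCtrl 2 the change was 0.81 with adjusted p = 4.66e-05, and without any other 1 library the adjusted p was 0.0642 to 0.132. RANKL's own gene, TNFSF11, was listed at 0 in all 6 libraries, and TNFRSF11A, which encodes the signalling receptor RANK, stayed under 0.05 TPM in every library.

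These shifts changed the order of the levels. In siNUDT5, BMP4 led and TNFRSF11B followed, both apart from the rest, and RUNX2, MSX2, SPP1 and ALPL formed a group between 8.68 and 13.4 TPM in which each gene's range met that of the next. In siCtrl, BMP4 led, TNFRSF11B and SPP1 came next with overlapping ranges, and RUNX2, ALPL and MSX2 followed, each again overlapping its neighbour. SPP1 thus stood level with ALPL and MSX2 in siNUDT5 but above both in all siCtrl libraries. The ratio of TNFRSF11B to SPP1 was 3.34, 3.31 and 2.90 in siNUDT5 1 to 3, against 0.972, 1.34 and 0.868 in siCtrl 1 to 3. BMP4 made up 62.4%, 64.6% and 62.0% of the summed TPM of the 10 genes in siNUDT5 1 to 3, against 57.8%, 48.0% and 52.6% in siCtrl 1 to 3. The sum itself was 190 to 209 TPM in siNUDT5 and 131 to 135 TPM in siCtrl.

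A wider set of 71 other bone genes, in 4 lists by role, placed these changes. In it 43 genes were tested, of which 14 rose and 3 fell (32.6% and 6.98% of those tested, where all tested genes gave 10.9% and 5.20%), with a median log2 change of 0.21. The number that rose was 20 without siCtrl 2 and 5 to 7 without siCtrl 3 or any 1 siNUDT5 library, and 1 to 5 fell when 1 library was left out. The lists were chosen with earlier results of these libraries known.

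Of 13 tested transcription factor genes beyond the members, 4 rose and 1 fell. CBFB, which encodes the partner protein of RUNX2, changed most. It averaged 139 ± 12.96 TPM in siNUDT5 and 65.2 ± 16.9 TPM in siCtrl (SD, n = 3 each). Its log2 change was 1.10 (adjusted p = 0.00433). MSX1, the paralogue of MSX2, rose by 0.59 and RUNX3 by 0.56 on the log2 scale, while RUNX1 had 0.18 and did not pass. ATF4, which osteoblasts of mice need for matrix synthesis and which is better known for the stress response, fell to 488 ± 22.8 TPM in siNUDT5, against 925 ± 89.3 TPM in siCtrl (SD, n = 3 each). The BMP-responsive genes ID1, ID2 and ID3 did not pass, with log2 changes of -0.13, 0.20 and 0.02. TWIST1, known from mice as a brake on RUNX2, stayed under 0.2 TPM in every library, and TWIST2 averaged 4.16 TPM in siNUDT5 and 2.59 TPM in siCtrl (adjusted p = 0.0786).

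Of 7 tested matrix genes 2 rose and 1 fell. The microfibril gene FBN1 rose by 0.67 and the collagen cross-linking enzyme gene LOX by 0.59, while the proteoglycan gene LUM fell by 0.72 on the log2 scale. The abundant matrix mRNAs did not pass: SPARC (osteonectin) averaged 805 ± 17.9 TPM in siNUDT5 and 723 ± 33.6 TPM in siCtrl, and COL1A1 averaged 452 ± 7.36 TPM in siNUDT5 and 385 ± 67.5 TPM in siCtrl (SD, n = 3 each). COL1A2, which encodes the other chain of type I collagen, averaged 0.204 TPM in siNUDT5 and 0.132 TPM in siCtrl. OMD and OGN were listed at 0 throughout, and BGN, MGP, DCN and POSTN averaged under 1 TPM in both groups.

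Of 6 tested genes of phosphate and mineral handling 2 rose and 1 fell. The phosphate transporter genes parted: SLC20A1 rose by 0.59 on the log2 scale, to 289 ± 8.74 TPM in siNUDT5, against 192 ± 5.98 TPM in siCtrl (SD, n = 3 each), and SLC20A2 fell by 0.37. FAM20C, which encodes the kinase that phosphorylates secreted matrix proteins including osteopontin, rose by 0.66. ENPP1 and ANKH, which supply the mineral inhibitor pyrophosphate, had log2 changes of -0.08 and 0.08 and did not pass. PHOSPHO1, at a mean of 0.998 TPM over all libraries, was just under the filter and was not tested. It averaged 1.46 ± 0.190 TPM in siNUDT5 and 0.536 ± 0.313 TPM in siCtrl (SD, n = 3 each), without overlap.

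Of 17 tested signal and receptor genes 6 rose and none fell. They were the transducer gene SMAD5 (log2 change 0.68), BMP7 (0.60), the macrophage growth factor gene CSF1 (0.55), the receptor genes FGFR1 (0.50) and FGFR2 (0.42), and the inhibitory SMAD7 (0.33). The 2 other BMP ligand genes that were tested, BMP2 (0.32) and BMP6 (0.50), and the BMP antagonist gene NOG (0.28) did not pass. BMP receptor genes BMPR1A, BMPR1B and BMPR2 did not pass either, with log2 changes of -0.04, -0.40 and -0.05.

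**Figure D3:**
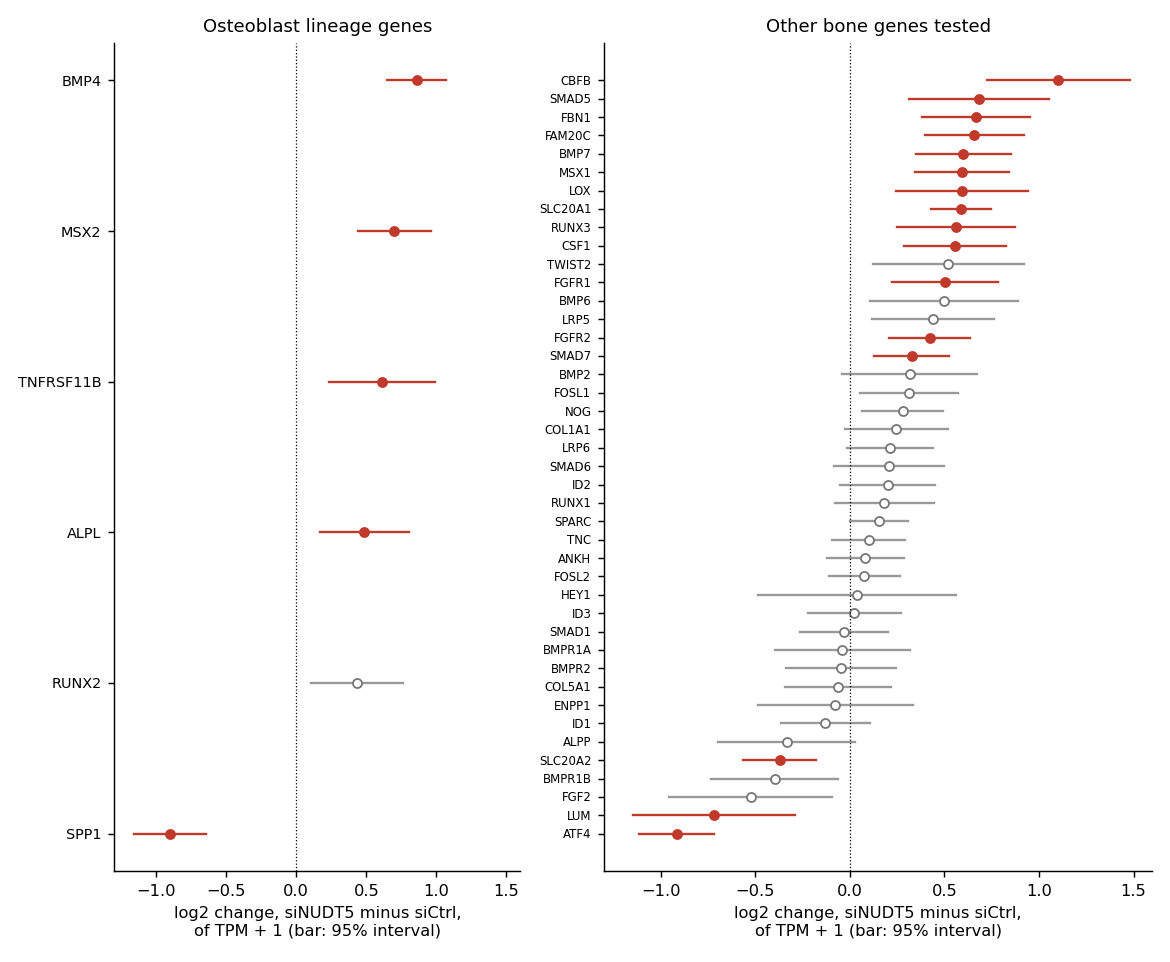
Log2 change of TPM + 1, siNUDT5 minus siCtrl, with its 95% interval, for the 6 tested osteoblast lineage genes (left) and for 42 of the 43 other bone genes that were tested (right); filled red points passed an adjusted p of 0.05 and open points did not. SPP1 at -0.90 stands alone on the left side of the left panel, and CBFB at 1.10 tops the right panel.

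Markers of other cell types were measured beside the osteoblast genes. Of 10 chondrocyte markers 5 were tested and 3 rose, where 10.9% of all tested genes were higher. They were SOX9, the cartilage master regulator, at 138 ± 12.7 TPM in siNUDT5 and 79.1 ± 7.58 TPM in siCtrl (SD, n = 3 each, adjusted p = 0.00245), and its partners SOX5 and SOX6. The other tested markers, MATN3 and ACAN, did not pass (adjusted p = 0.339 and 0.183). The summed level of all 10 chondrocyte markers was 144 to 172 TPM in siNUDT5 and 84.8 to 102 TPM in siCtrl, most of it SOX9. COMP was listed at 0, and the cartilage collagen genes COL2A1, COL9A1, COL10A1 and COL11A2 averaged under 0.2 TPM in both groups. COL11A2 averaged 0.103 TPM in siNUDT5 and 0.188 TPM in siCtrl, without overlap, and was not tested. Of 8 adipocyte markers 3 were tested and none passed; PPARG averaged 19.99 TPM in siNUDT5 and 20.03 TPM in siCtrl, and ADIPOQ and LEP were listed at 0. Of 8 osteoclast markers, MMP9 and ITGB3 were tested and did not pass. Among the untested ones CTSK (1.07 TPM in siNUDT5 and 0.339 TPM in siCtrl on average) and CALCR (0.140 and 0.0552 TPM) were higher without overlap. DCSTAMP (0.0226 TPM in siNUDT5 and 0.143 TPM in siCtrl) was lower without overlap. None of 7 skeletal muscle markers reached a mean of 1 TPM. Of the 6 osteocyte markers only PDPN was tested, and it rose by 0.45 on the log2 scale, with SOST, DMP1, MEPE and FGF23 under 0.2 TPM on average. Of 9 blood and epithelial markers 3 were tested, and only the epithelial gene EPCAM passed. It fell by 0.74 on the log2 scale, to 5.39 TPM in siNUDT5, against 9.89 TPM in siCtrl. The epithelial genes CDH1 and KRT14 had log2 changes of -0.10 and 0.31 and did not pass. The blood genes CD3E, HBB and HBA1 were listed at 0, and PTPRC averaged 0.158 TPM in siNUDT5 and 0.120 TPM in siCtrl. Whether the rise of SOX9, SOX5 and SOX6 has a part in the changes above was not tested. Fewer cells of a kind and less RNA per cell cannot be told apart in bulk RNA.

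An siRNA can also lower other mRNAs through short matches in their 3' untranslated regions, and an earlier look at these libraries had picked 3 words of 7 bases on the same log2 changes. The words AAGACTT or AGACTTA were in the longest annotated 3' untranslated region (GENCODE 29) of 43.0% of the genes that fell. Of the 11479 tested genes that could be searched, 24.2% held either word. GATTAAC was instead more frequent among genes that rose, at 12.5% of these, against 4.03% of those that fell and 6.35% of all. None of the 3 words was found in SPP1, BMP4, MSX2, ALPL or TNFRSF11B, the members that passed. Of the 6 members that were on, RUNX2 alone held a word, GATTAAC, once in its 4394 bases; the site is shown with the word in capitals.
RUNX2, 3' untranslated region, from GENCODE 29: gaaactcaacaGATTAACtatcgtttgct
In the wider bone lists GATTAAC was in 2 of the 14 genes that rose, SMAD5 among them, and AAGACTT or AGACTTA in 3 of these 14, FGFR1 and FGFR2 among them, and in none of the 3 that fell. CBFB held none of the words, and SOX5 held AAGACTT and GATTAAC. Whether these words bear on the changes was not tested.

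**Figure D4:**
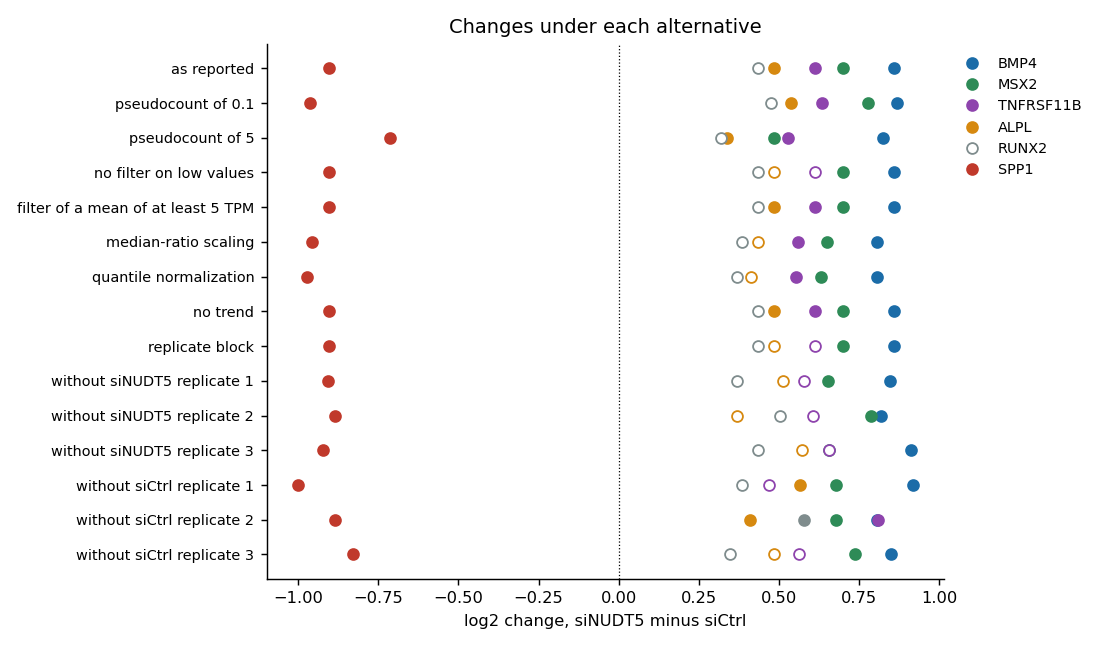
Log2 change, siNUDT5 minus siCtrl, of the 6 tested osteoblast lineage genes as reported (top) and under each of 14 alternatives; filled points passed an adjusted p of 0.05 and open points did not. BMP4, MSX2 and SPP1 are filled in every line, ALPL and TNFRSF11B in some, and RUNX2 only without siCtrl replicate 2.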

How the data were processed

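RNA of U2OS cells was sequenced from strand-specific mRNA libraries, per the labels' protocols. The authors deposited TPM per gene symbol for 6 libraries, each summing to 1000000. The tools used, per the submitters' processing notes, include DESeq2 1.22.1 and STAR 2.7.3a, with build hg19, and the role of each is not stated. How the TPM were computed, and whether counting used strand, is not stated in the sources at hand. Groups came from sample titles.

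The values were tested as log2(TPM + 1) in limma 3.58.1 under R 4.3.3, which understates changes of low genes, with eBayes and a trend, over the 12236 genes averaging at least 1 TPM, and were checked on simulated data. A change was called at an adjusted p under 0.05. The members and lists were chosen with earlier results of these data known. Named genes are the members, NUDT5 and genes of the lists past the threshold. Some of the lists' most abundant genes and some markers of at least 1 TPM are also named. The markers of at least 1 TPM left unnamed did not pass. Other genes named were chosen after their values were seen. Low-value ratios of 2 libraries were matched to ratios of whole numbers up to 5 within 0.1%, in genes under 0.3 TPM in siCtrl 1; after scaling, 72.0% to 81.5% matched. Sequences and figures were handled in Python 3.11.15. Alternatives were other pseudocounts, filters and scalings, no trend, a replicate block and leaving out each library. DLX6-AS1 was not analysed here, and a few genes of the lists are not reported by name.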

Additional observations from a re-analysis of the deposited data

How the results depend on the processing

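Direction held for all 6 tested members in each of 14 alternatives, and BMP4, MSX2 and SPP1 passed in all of them. The number of members that rose was 4 as reported and 3 with median-ratio scaling or with quantile normalization. Without a filter on low values, where 16903 genes were tested, it was 2. With 1 library left out it was 2 to 5, and 1 member fell in each of these. Over all genes 965 were lower with quantile normalization, and leaving out 1 library gave 520 to 2672 higher and 213 to 1132 lower. In the wider bone lists this gave 5 to 20 higher and 1 to 5 lower, while median-ratio scaling kept the counts at 14 and 3. Same-numbered libraries deviated from their group means with correlations of -0.426, -0.538 and -0.0449, so the number did not pair them, and no sample correlated best with its own number. With the replicate number as a block 2 members rose, ALPL and TNFRSF11B being lost, 486 genes were higher and 253 lower, and 4 of the wider list rose and 1 fell. The cause of these differences was not tested. Counting a gene as on from a mean of 0.5 or 2 TPM gave the same 6 genes in both groups. For the genes near 0, TPM gives no read total, and depth limits what could be seen.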

Other observations

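The genes whose pattern over the 6 libraries was most like that of a member, by Pearson's r of log2(TPM + 1) among tested genes, are given as a description, since the libraries fall into 2 groups and share that difference. For BMP4 they were SLC9A3R1 (0.9998), SURF4 (0.9986) and SEMA6B (0.9977), and for SPP1 they were FYN (0.9958), TNFRSF9 (0.9949) and POLR3C (0.9923). For MSX2 they were RABIF, CTPS2 and PRICKLE1, for ALPL they were BET1L, TMEM158 and MAGED2, for TNFRSF11B they were NR3C2, KLHL7 and KAT6A, and for RUNX2 they were YPEL5, DNAL1 and MPHOSPH6.

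Several bone genes that the filter left out had low values, some of them possibly in the range of single reads. TWIST1 was above 0 in all siNUDT5 libraries and listed at 0 in all siCtrl libraries. Its 3 values stood in the ratio 1 to 1 to 1, the smallest whole numbers that fit. DMP1, MEPE and DSPP were above 0 in 1, 2 and 1 siNUDT5 libraries and listed at 0 in siCtrl. POSTN (0.0290 TPM in siNUDT5 and 0.130 TPM in siCtrl on average) and DCN (0.00577 and 0.0550 TPM) were lower in siNUDT5 without overlap. MGP, PHEX, PHOSPHO1 and SMPD3, like TWIST1, were higher in siNUDT5 without overlap. COL1A2, in the smallest whole numbers that fit its values, had 13, 4 and 5 reads in siNUDT5 1 to 3, against 6, 1 and 8 reads in siCtrl 1 to 3. PHEX, an endopeptidase gene of osteocytes, had 12, 25 and 14 reads in siNUDT5 1 to 3, again in the smallest whole numbers that fit. In siCtrl 1 to 3, with siCtrl 2 the shallowest library, it had 7, 5 and 8 reads. These genes were under the filter and were not tested.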
